A study of Mus musculus with 23 samples.

Results

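The genes described here are 51 genes of the cell cycle and of DNA replication, among them the G1 cyclins and their kinases, the CDK inhibitors Cdkn1a and Cdkn1b, the factors that license and open replication origins, the enzymes that supply and join nucleotides, and the mitotic machinery. Their names came from a list of proliferation genes, and a gene was taken in where the RefSeq accession of an array probe belonged to it. All 51 had a probe, 66 probes in all, out of 26014 genes tested. RNA of bone marrow-derived macrophages (BMDM) was measured on 23 one-colour Agilent arrays. The cells came from male C57BL/6 mice of 10 to 14 weeks, which were wild-type (wt), lacked the kinase MK2 (MK2-/-) or lacked MK2 and its relative MK3 (MK2/3-/-), and had spent 9 days in medium with M-CSF (10 ng/ml) before they were moved to M-CSF-free medium for the experiment. Cells of each genotype received LPS at 100 ng/ml and were harvested 120 min later, or received medium alone, and every group held 4 arrays apart from the MK2-/- medium group of 3. All 6 groups shared the growth in M-CSF and its withdrawal, and the knockout mice lacked the kinases in every cell, so that macrophages had developed without them.

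A cell commits to division when D-type cyclins with Cdk4 or Cdk6 phosphorylate the retinoblastoma protein and release E2F transcription factors, which switch on the genes for DNA synthesis. Cdc6 and Cdt1 then load the MCM helicase onto origins, Gmnn (geminin) holds Cdt1 in check so that DNA is copied a single time, and the cyclins A and B with Cdk1 drive the cell into mitosis. In bone marrow-derived macrophages M-CSF is the signal for division, and LPS, the cell wall component of Gram-negative bacteria that acts through Toll-like receptor 4, is known to halt it in G1, with Cdkn1a (p21) as an inhibitor of cyclin-dependent kinases.

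Between 47.5% and 69.1% of the probes of an array lay well above background, both extremes being MK2/3-/- medium arrays (replicates 1 and 2), and no spot was saturated. Each genotype had been hybridised on a slide of its own, so that genotype and slide cannot be told apart, and within a slide the medium arrays lay in 1 row and the LPS arrays in the other, so that treatment and row cannot be told apart. The medium and the LPS array of a culture shared a column, which was the same for cultures of the same number on every slide. Culture number and column therefore cannot be told apart. The Mapkapk2 probe, which reports MK2, had a mean log2 signal of 12.22 in wt medium against 8.91 in MK2-/- and 8.72 in MK2/3-/- medium, and the Mapkapk3 probe, which reports MK3, had 13.50, 13.74 and 11.88. After LPS the Mapkapk2 probe had 14.77, 11.96 and 11.76, so that it rose in the knockouts as well, and the Mapkapk3 probe had 14.01, 13.98 and 10.70. All 7 macrophage markers measured, among them Adgre1, which encodes F4/80, were well above background on every array. Fibroblast and stroma markers differed between cultures of the same group: the median log2 signal of these 5 genes, which include the collagens Col1a1 and Col1a2, ran from 4.54 to 10.03 on the 11 medium arrays. Less RNA per cell and fewer cells of a kind, such as cells in cycle, cannot be told apart in such bulk samples.

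The promoter of a gene, taken as the 250 bases before and the 50 bases after its start, was found for 43 of the 51 genes in the RefSeq table of the mouse assembly GRCm38.p6. Only the first listed promoter of a gene was used, and any other start was left out. It was searched on both strands for TTTGAA, a motif of mitotic promoters called CHR, for CCAAT, and for the E2F cores TTCCCGC and TTGGCGC, of which the last can overlap a CCAAT box on the other strand. The CHR motif was present in 15 of the 43 promoters (34.9%) and in 18.1% of the promoters of 27025 genes, CCAAT in 31 (72.1% against 37.9%), and at least 1 of the E2F cores in 14 (32.6% against 6.93%). Among the mitotic genes 11 of 15 promoters held TTTGAA and 1 held an E2F core, among the licensing and helicase genes 2 of 9 held TTTGAA and 6 an E2F core, and among the later cyclins and Cdk1 2 of 3 held TTTGAA and 2 an E2F core. Below are the promoters of 5 genes on which the results turn, each 300 bases, read 5′ to 3′ along the strand of the gene, with every motif in capitals, also where it is the reverse complement of the motif that stands in the strand shown. E2f2 (chr4:136172024-136172323, plus strand) and Cdt1 (chr8:122567765-122568064, plus strand) were the genes with the largest falls after LPS, Cdkn1a (chr17:29090729-29091028, plus strand) rose in every culture, and Mki67 (chr7:135716330-135716629, minus strand) and Plk1 (chr7:122159185-122159484, plus strand) are mitotic genes that moved in opposite directions.
E2f2: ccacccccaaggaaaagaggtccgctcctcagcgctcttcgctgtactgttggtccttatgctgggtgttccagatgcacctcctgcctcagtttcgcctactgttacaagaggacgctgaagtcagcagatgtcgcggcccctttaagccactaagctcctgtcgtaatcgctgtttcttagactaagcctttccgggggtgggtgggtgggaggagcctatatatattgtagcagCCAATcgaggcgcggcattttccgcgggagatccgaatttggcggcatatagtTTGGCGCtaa
Cdt1: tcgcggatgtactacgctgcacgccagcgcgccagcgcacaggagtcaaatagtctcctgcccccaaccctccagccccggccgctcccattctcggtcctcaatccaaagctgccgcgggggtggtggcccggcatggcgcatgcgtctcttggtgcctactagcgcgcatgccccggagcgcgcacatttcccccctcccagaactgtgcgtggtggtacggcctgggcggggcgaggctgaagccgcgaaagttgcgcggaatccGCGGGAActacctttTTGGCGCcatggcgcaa
Cdkn1a: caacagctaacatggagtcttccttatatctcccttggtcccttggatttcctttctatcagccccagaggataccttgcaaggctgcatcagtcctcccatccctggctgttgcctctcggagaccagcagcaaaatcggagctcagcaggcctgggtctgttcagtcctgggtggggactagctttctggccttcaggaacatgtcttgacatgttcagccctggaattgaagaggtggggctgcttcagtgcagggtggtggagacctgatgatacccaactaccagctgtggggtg
Mki67: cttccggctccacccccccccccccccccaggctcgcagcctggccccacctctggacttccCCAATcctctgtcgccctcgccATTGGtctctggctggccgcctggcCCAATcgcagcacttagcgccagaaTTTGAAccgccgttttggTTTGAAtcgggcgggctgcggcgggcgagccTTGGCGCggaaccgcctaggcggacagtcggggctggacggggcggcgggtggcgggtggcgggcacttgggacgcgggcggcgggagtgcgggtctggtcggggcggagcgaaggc
Plk1: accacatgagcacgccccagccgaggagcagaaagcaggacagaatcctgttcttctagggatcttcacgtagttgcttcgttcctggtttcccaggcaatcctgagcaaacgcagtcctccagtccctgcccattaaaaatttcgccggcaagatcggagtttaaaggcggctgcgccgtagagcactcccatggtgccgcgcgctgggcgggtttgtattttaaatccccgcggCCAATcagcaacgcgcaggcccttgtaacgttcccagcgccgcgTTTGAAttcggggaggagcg

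The E2f2 window held a CCAAT box and TTGGCGC, the Cdt1 window both E2F cores and no other motif, and the Cdkn1a window none of the 4. The windows of Mki67 and Plk1 both held TTTGAA and CCAAT, and that of Mki67 held TTGGCGC as well. These genes are examples. In the comparison within cultures described below, 23 members with a promoter fell, 16 were not called and 4 rose. An E2F core stood in 8, 5 and 1 of these promoters, TTTGAA in 9, 5 and 1, and CCAAT in 16, 14 and 1. The shares were not tested. A match of letters describes the sequence and shows no binding.

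In response to LPS, 8 of the 51 genes passed an adjusted p of 0.05 in wt BMDM, beside 17.9% of all genes tested, with 4 higher (beside 7.57%) and 4 lower (beside 10.3%). In MK2-/- BMDM 8 passed as well, beside 19.6% of all genes, 4 higher (beside 8.04%) and 4 lower (beside 11.5%). In MK2/3-/- BMDM 10 passed, beside 25.8%, 6 higher (beside 11.2%) and 4 lower (beside 14.5%). Ccnd2, Cdk6, Cdkn1a and Tyms rose and E2f2, Cdt1 and Gmnn fell in each of the genotypes. Ccnd3 fell in wt and MK2-/- BMDM, Mcm4 fell in MK2/3-/- BMDM, and Cdkn1b and Mki67 rose in MK2/3-/- BMDM. Most of the members that did not pass also had a lower mean after LPS: 41, 40 and 41 of the 51 differences were negative in wt, MK2-/- and MK2/3-/- BMDM, with medians of -0.37, -0.39 and -0.47 on the log2 scale, beside medians of -0.11, -0.12 and -0.13 over the 13171 genes detected on all arrays. The groups did not overlap for 7, 11 and 11 members, beside 23%, 33% and 27.2% of all genes. With arrays scaled to their 75th percentile in place of quantile normalization, the median of all genes moved from -0.03 to 0.11 in wt and from -0.04 to 0.16 in MK2-/- BMDM, and the calls split into 5 higher and 3 lower in wt, 5 and 2 in MK2-/- and 6 and 3 in MK2/3-/- BMDM.

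**Figure D1:**
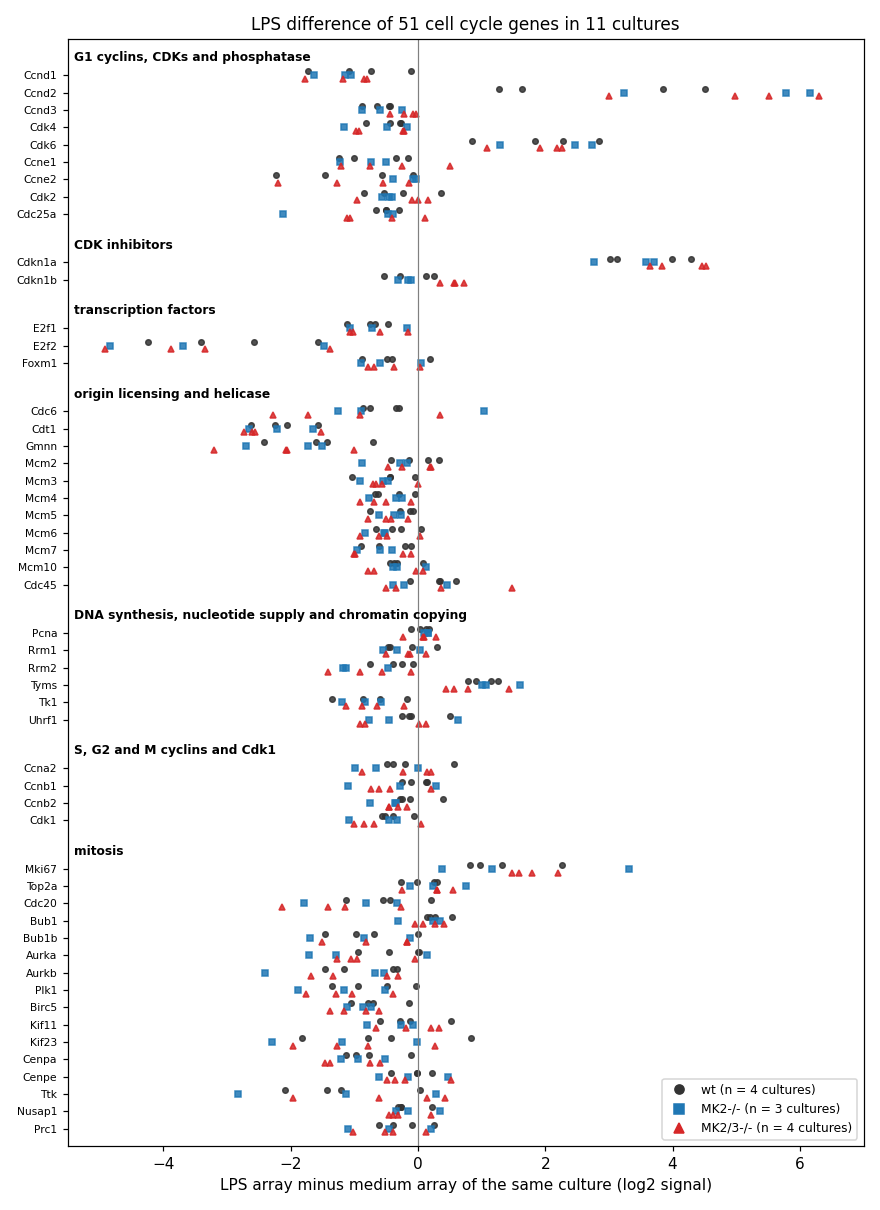
Difference between the LPS array and the medium array of the same culture (x axis, log2 signal) for each of the 51 genes (y axis, grouped by role), with a point for each of 11 cultures, coloured by genotype. Ccnd2, Cdk6, Cdkn1a, Tyms and Mki67 lie right of 0 in every culture, and E2f2, Cdt1 and Gmnn lie left of it in every culture.

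Ccnd2, the D-type cyclin that pairs with Cdk4 and Cdk6, had the largest rise of the G1 genes. Its log2 signals in wt BMDM were 12.06, 9.21, 8.87 and 9.69 in medium (replicates 1 to 4, the order kept throughout) and 13.33, 13.73, 12.72 and 11.33 after LPS. MK2-/- BMDM had 7.95, 8.19 and 9.18 in medium and 13.73, 14.35, 13.26 and 12.42 after LPS. MK2/3-/- BMDM had 8.97, 8.18, 8.17 and 9.56 in medium and 14.49, 14.48, 13.15 and 12.56 after LPS. One wt medium array, replicate 1, stood above LPS replicate 4, so that the wt groups overlapped, while in both knockouts every LPS array was higher than every medium array. The log2 difference was 2.82 ± 0.67 (SE) in wt (7.06-fold, adjusted p = 0.00489), and, in the knockouts, 5.00 ± 0.72 without MK2 (32.0-fold, adjusted p = 3.91e-05) and 4.95 ± 0.67 without both kinases (30.9-fold, adjusted p = 1.29e-05). The wt call was lost with the compared groups fitted alone (adjusted p = 0.0577) and by the methods' t-test (adjusted p = 0.103). The larger difference in the knockouts did not pass: the interactions were 2.18 and 2.13 with unadjusted limma p-values of 0.0389 and 0.0359 and adjusted p-values of 1.00. In each genotype the medium array with the highest Ccnd2 signal also had the highest stroma marker median (10.03 in wt replicate 1, 8.75 in MK2-/- replicate 3, 9.86 in MK2/3-/- replicate 4), and the part of these cells in the Ccnd2 values was not tested.

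Cdk6, a catalytic partner of the D-type cyclins, rose with Ccnd2. In wt BMDM its log2 signals were 6.06, 6.38, 5.96 and 6.54 in medium and 7.90, 9.21, 8.25 and 7.39 after LPS. They were 5.26, 6.14 and 6.15 against 7.98, 8.62, 8.26 and 7.45 in MK2-/- BMDM. In MK2/3-/- BMDM they were 6.69, 6.57, 6.03 and 6.59 against 8.61, 8.83, 8.21 and 7.67. Every LPS array exceeded every medium array, and LPS replicate 4 was the lowest of its group in all genotypes. The log2 differences for wt, MK2-/- and MK2/3-/- cells were 1.95 ± 0.35, 2.23 ± 0.37 and 1.86 ± 0.35 (SE, adjusted p = 0.000371, 0.000198 and 0.000401).

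The other D-type cyclins went the opposite way. Ccnd1, the cyclin that M-CSF maintains in cycling macrophages, had log2 signals of 12.99, 13.35, 11.29 and 10.98 in wt medium and of 11.90, 11.63, 10.56 and 10.88 after LPS. The values were 10.79, 12.41 and 11.90 against 9.74, 10.79, 9.32 and 10.75 in MK2-/- BMDM and 12.79, 13.25, 10.06 and 11.53 against 11.61, 11.47, 9.21 and 10.73 in MK2/3-/- BMDM. The arrays of a group spread widely, and the wt and MK2/3-/- groups overlapped while the MK2-/- groups did not. The log2 differences of -0.91 ± 0.70, -1.55 ± 0.76 and -1.15 ± 0.70 (SE) did not pass (adjusted p = 0.462, 0.179 and 0.258). Ccnd3 had 12.76, 12.87, 12.75 and 12.70 in wt medium and 12.30, 12.00, 12.31 and 12.06 after LPS. It had 13.31, 12.85 and 12.98 against 12.43, 12.26, 12.34 and 12.73 in MK2-/- and 13.30, 12.91, 12.83 and 12.98 against 12.87, 12.88, 12.75 and 12.76 in MK2/3-/- BMDM. The wt and MK2-/- groups were separate and the MK2/3-/- groups overlapped. Its log2 difference was -0.60 ± 0.13 in wt (adjusted p = 0.0028), -0.60 ± 0.14 in MK2-/- cells (adjusted p = 0.00469) and, not passing, -0.19 ± 0.13 in MK2/3-/- cells (adjusted p = 0.338). With scaling to the 75th percentile the first 2 were -0.33 and -0.32 and no longer passed (adjusted p = 0.143 and 0.191), and a second Ccnd3 probe gave -0.35, -0.51 and 0.27. Cdk4, Ccne1, Ccne2, Cdk2 and Cdc25a, the remaining kinases, E cyclins and phosphatase of the G1/S transition, were not called in any genotype. The Ccne2 probe was well above background on 1 of the 23 arrays.

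**Figure D2:**
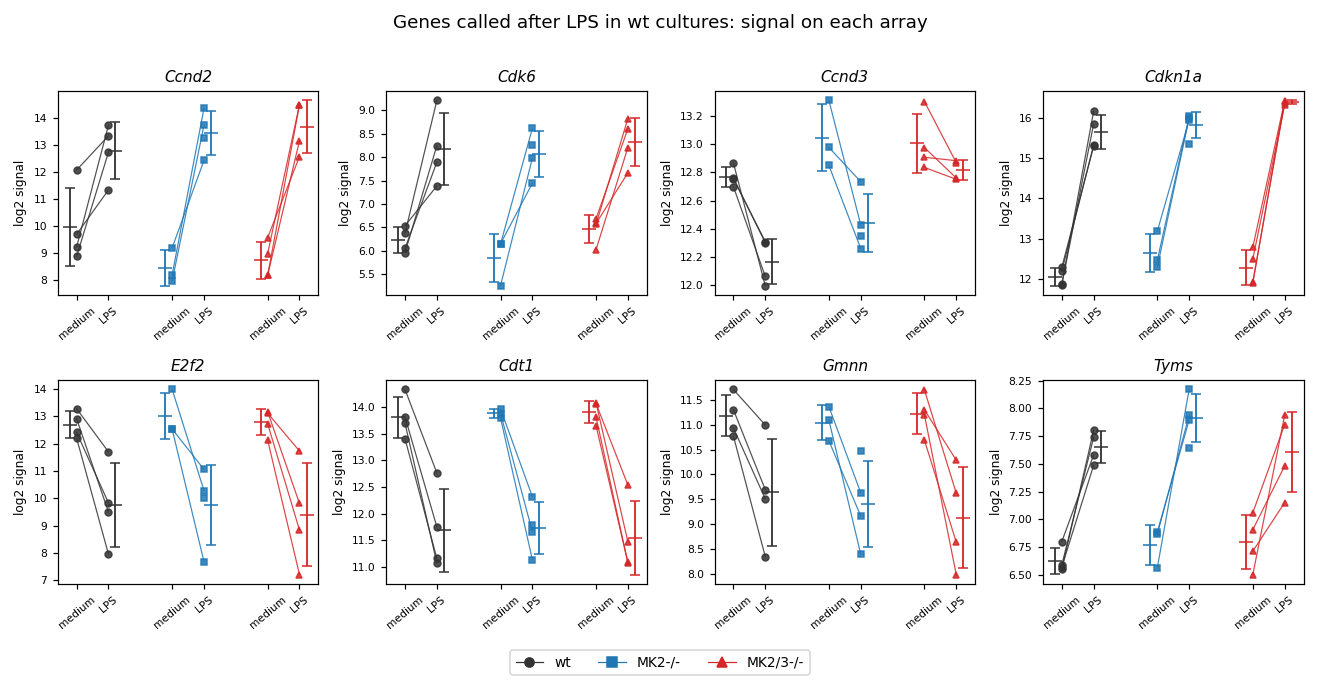
Log2 signal (y axis) of Ccnd2, Cdk6, Ccnd3, Cdkn1a, E2f2, Cdt1, Gmnn and Tyms on each array in medium and after LPS (x axis) by genotype, with lines joining the arrays of a culture and bars giving the mean ± SD of a group. Cdkn1a separates medium from LPS by more than 2 log2 units in every genotype, whereas the LPS arrays of E2f2 spread over more than 3.

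Cdkn1a, the CDK inhibitor p21, was the member with the smallest adjusted p-values. Its log2 signals were 12.19, 11.86, 11.86 and 12.28 in wt medium and 15.32, 16.16, 15.84 and 15.30 after LPS. In MK2-/- BMDM they rose from 13.18, 12.46 and 12.29 to 15.94, 16.04, 15.35 and 15.99. In MK2/3-/- BMDM they rose from 12.78, 11.92, 11.90 and 12.50 to 16.42, 16.37, 16.42 and 16.32. Medium and LPS arrays lay far apart, and the 4 MK2/3-/- LPS arrays were nearly level with an SD of 0.05. The differences were 3.61 ± 0.24 (12.2-fold, adjusted p = 2.07e-09), 3.19 ± 0.26 (9.10-fold, adjusted p = 3.58e-08) and 4.11 ± 0.24 (17.3-fold, adjusted p = 2.94e-10) in wt, MK2-/- and MK2/3-/- BMDM. Cdkn1b, the inhibitor p27 that holds quiescent cells in G1, is described with the genotype comparisons below.

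Among the transcription factors, E2f2, an activator of S-phase genes, had the largest fall among the members called. Its signals in wt BMDM were 12.91, 12.20, 12.41 and 13.27 in medium and 9.50, 7.96, 9.83 and 11.70 after LPS. MK2-/- BMDM had 13.98, 12.53 and 12.54 against 10.29, 7.69, 10.02 and 11.06. MK2/3-/- BMDM had 12.72, 12.13, 13.16 and 13.11 against 8.84, 7.21, 9.81 and 11.73. No LPS array reached a medium array of its genotype, and replicate 2 was the lowest and replicate 4 the highest LPS array in each genotype. The log2 differences were -2.95 ± 0.85, -3.25 ± 0.91 and -3.38 ± 0.85 (SE, adjusted p = 0.0189, 0.0155 and 0.00519). The wt call was lost without wt medium replicate 4 (-2.76, adjusted p = 0.056) or LPS replicate 2 (-2.35, adjusted p = 0.0837), and the MK2-/- call without medium replicate 1 (-2.77, adjusted p = 0.0837) or LPS replicate 2 (-2.55, adjusted p = 0.0632). With the methods' t-test E2f2 passed in none of the genotypes (adjusted p = 0.0702, 0.089 and 0.0626). E2f1, an E2F of the same class, and Foxm1, the activator of mitotic genes, had negative differences in all genotypes and were not called.

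Of the 11 genes that license origins and form the helicase, Cdt1, the loader of the MCM complex, and Gmnn, its inhibitor, fell together. Cdt1 had log2 signals of 13.40, 13.69, 13.81 and 14.33 in wt medium and of 11.16, 11.07, 11.75 and 12.76 after LPS. The signals were 13.88, 13.79 and 13.96 against 11.66, 11.14, 11.79 and 12.32 in MK2-/- BMDM and 13.81, 13.65, 14.08 and 14.06 against 11.08, 11.09, 11.47 and 12.54 in MK2/3-/- BMDM. The medium arrays were tight and all above the LPS arrays, of which replicate 4 was the highest in each genotype. Cdt1 differed by -2.12 ± 0.35, -2.15 ± 0.38 and -2.36 ± 0.35 (SE, adjusted p = 0.000207, 0.000353 and 4.37e-05), or 4.35, 4.44 and 5.12-fold. Gmnn had 11.30, 10.77, 10.94 and 11.71 in wt medium and 9.70, 8.35, 9.51 and 11.00 after LPS. It had 11.36, 11.09 and 10.68 against 9.63, 8.39, 10.46 and 9.16 in MK2-/- and 10.69, 11.20, 11.70 and 11.30 against 8.64, 7.99, 9.62 and 10.29 in MK2/3-/- BMDM. The wt groups overlapped through LPS replicate 4, and those of the knockouts did not. Gmnn differed by -1.54 ± 0.52, -1.63 ± 0.57 and -2.09 ± 0.52 (SE, adjusted p = 0.0478, 0.0495 and 0.0053), and its wt and MK2-/- calls lay so close to the threshold that each was lost in 18 of the 23 fits that left out an array. Mcm4, a helicase subunit, was called in MK2/3-/- BMDM with -0.56 ± 0.20 (adjusted p = 0.048), a call likewise lost in 18 of 23 such fits. Cdc6, Mcm2, Mcm3, Mcm5, Mcm6, Mcm7, Mcm10 and Cdc45 were not called in any genotype.

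Of the 6 genes of DNA synthesis, nucleotide supply and chromatin copying, only Tyms, which encodes thymidylate synthase, was called. Its log2 signals were 6.55, 6.59, 6.57 and 6.80 in wt medium and 7.80, 7.74, 7.49 and 7.58 after LPS. They were 6.89, 6.56 and 6.87 against 7.89, 8.17, 7.65 and 7.94 in MK2-/- BMDM and 6.50, 7.06, 6.91 and 6.71 against 7.94, 7.85, 7.48 and 7.15 in MK2/3-/- BMDM. All LPS arrays stood above the medium arrays of their genotype. The log2 differences were 1.02 ± 0.17, 1.14 ± 0.18 and 0.81 ± 0.17 (SE, adjusted p = 0.000175, 0.000117 and 0.00113). In the RefSeq annotation the gene next to Tyms is Il6, the cytokine gene that LPS induces, and whether this bears on the Tyms probe was not tested. Pcna, the sliding clamp of the DNA polymerases, had 15.39, 15.50, 15.52 and 16.22 in wt medium and 15.28, 15.62, 15.69 and 16.25 after LPS. In MK2-/- BMDM it had 14.99, 15.58 and 15.44 against 15.15, 15.74, 15.90 and 15.54, and in MK2/3-/- BMDM 15.45, 15.83, 15.78 and 15.76 against 15.73, 15.92, 15.54 and 15.84. The groups overlapped throughout. The differences of 0.06 (95% interval from -0.40 to 0.51), 0.25 (from -0.24 to 0.74) and 0.05 (from -0.40 to 0.51) did not pass.

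The mitotic genes included the proliferation marker Mki67, which was higher after LPS. In wt BMDM the log2 signals of Mki67 were 13.25, 13.20, 11.96 and 13.82 in medium and 14.21, 14.52, 14.22 and 14.63 after LPS. In MK2-/- BMDM they were 15.06, 13.38 and 11.66 against 15.43, 14.55, 14.57 and 14.97. In MK2/3-/- BMDM they were 12.38, 13.10, 13.51 and 13.61 against 14.58, 14.70, 14.98 and 15.41. Signals in medium spread widely and those after LPS were close together, and the MK2-/- groups overlapped because medium replicate 1 was high. The log2 difference was 1.76 ± 0.51 (SE) in MK2/3-/- BMDM (3.40-fold, adjusted p = 0.014) and, not passing, 1.34 ± 0.51 in wt and 1.52 ± 0.55 in MK2-/- cells (adjusted p = 0.080 and 0.0611). A second Mki67 probe gave 1.31, 1.61 and 1.82. With 75th percentile scaling, with dim probes filtered out or with the culture as a block, wt and MK2-/- BMDM passed too (adjusted p from 0.0128 to 0.049). Without MK2-/- medium replicate 1 the gene was called in wt (1.34, adjusted p = 0.023) and MK2-/- BMDM (2.37, adjusted p = 0.00199), and in wt also without MK2-/- medium replicate 3 (1.35, adjusted p = 0.0218), in MK2-/- also without wt medium replicate 3 (1.52, adjusted p = 0.0487). Without MK2/3-/- medium replicates 1 and 2, the arrays with the lowest and highest share of probes above background, the MK2/3-/- difference was 1.36 (adjusted p = 0.14).

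Top2a, the topoisomerase that untangles sister chromatids, had 11.51, 10.88, 10.38 and 11.91 in wt medium and 11.25, 10.88, 10.63 and 12.21 after LPS. It had 12.85, 11.00 and 10.03 against 12.71, 11.23, 11.83 and 10.79 in MK2-/- and 9.96, 10.68, 11.50 and 11.53 against 10.26, 10.98, 11.25 and 12.08 in MK2/3-/- BMDM. The order of the cultures was the same before and after LPS in wt BMDM, and the groups overlapped throughout. The differences were 0.07, 0.35 and 0.22 (SE 0.58, 0.62 and 0.58) and did not pass. Plk1, the kinase of mitotic entry, ran from 11.02 to 12.64 in wt medium and from 10.39 to 12.30 after LPS, and Birc5 (survivin), a subunit of the chromosomal passenger complex, from 13.51 to 14.84 and from 12.70 to 14.70. None of the 16 mitotic genes other than Mki67 and none of Ccna2, Ccnb1, Ccnb2 and Cdk1 was called in any genotype by the comparison of groups.

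**Figure D3:**
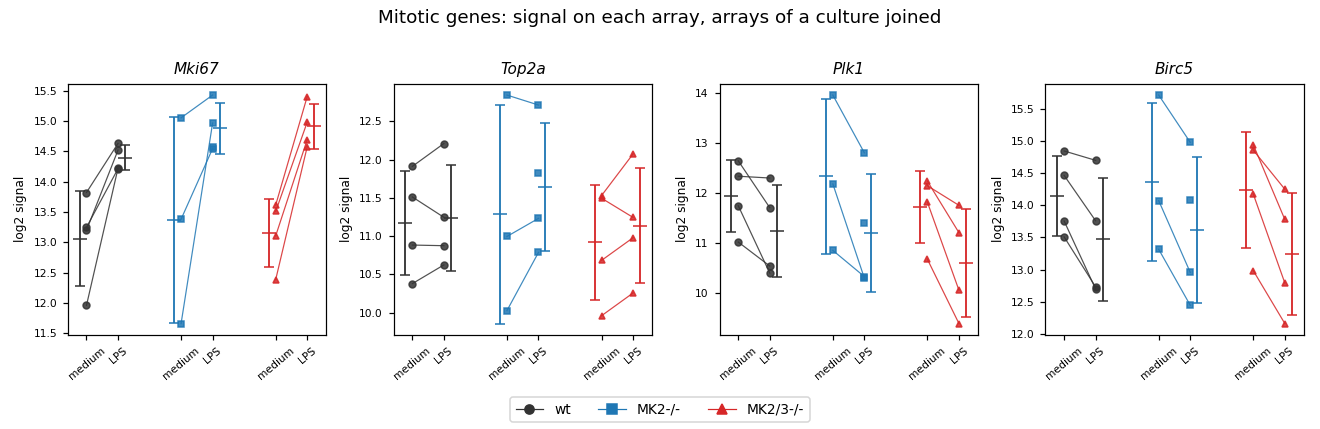
Log2 signal (y axis) of Mki67, Top2a, Plk1 and Birc5 on each array in medium and after LPS (x axis) by genotype, with lines joining the arrays of a culture and bars giving the mean ± SD of a group. The lines of Mki67 rise and those of Plk1 and Birc5 fall in all 11 cultures, while the groups of Plk1 and Birc5 overlap in each genotype, and the lines of Top2a go both ways.

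The labels gave the medium and the LPS array of a culture the same replicate number and mouse age, which paired 11 cultures, 4 of wt, 3 of MK2-/- and 4 of MK2/3-/- BMDM; MK2-/- medium replicate 3 was paired with LPS replicate 4, whose age it shared, and MK2-/- LPS replicate 3 stayed unpaired. After the data had been seen, each LPS array was therefore compared with the medium array of its own culture. The culture was a block, and the mean of the genotypes was the quantity tested. The fit took the 11 cultures as independent of each other. Same-numbered cultures of the genotypes, however, shared a slide column and responded in a like order, as described below. The adjusted p-values of the fit and the counts over 11 cultures may therefore overstate the evidence. In this comparison 34 of the 51 genes passed, beside 45% of all genes. Those that rose were 5 (beside 18.6% of all genes), Ccnd2, Cdk6, Cdkn1a, Tyms and Mki67. The other 29 fell, which is 56.9% of the members, beside 26.3% of all genes tested and 5433 of the 13171 genes detected on all arrays. By role, 6 of 9 G1 genes, all 3 transcription factors, 7 of 11 licensing and helicase genes, 2 of 6 DNA synthesis genes, 2 of 4 later cyclins and Cdk1, and 9 of 16 mitotic genes fell. The G1 count includes Ccne2, which was near background. The count of later cyclins includes Cdk1, which gave 0.42 with its probe of highest LPS induction (adjusted p = 0.0883) and -0.20 with the mean of its probes (adjusted p = 0.0762), neither of which passed. Scaling to the 75th percentile changed the split to 8 higher and 24 lower: Pcna (0.45), Top2a (0.31) and Cdkn1b (0.30) passed as higher, Cdk2 (-0.36) passed as lower, and Ccnd3, Cdk4, Ccne2, Mcm4, Mcm6 and Ccnb2 no longer passed.

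Ccnd1 was lower in all 11 cultures, by 0.11 to 1.78, with a mean log2 difference of -1.11 ± 0.15 (SE, adjusted p = 0.00018). The mitotic genes that fell in every culture were Plk1 (-1.002 ± 0.17, adjusted p = 0.000831), Aurkb, the kinase of the passenger complex (-0.999 ± 0.21, adjusted p = 0.00303), Cenpa, the centromeric histone (-0.90 ± 0.13, adjusted p = 0.00022), Birc5 (-0.86 ± 0.10, adjusted p = 7.76e-05) and Bub1b, a checkpoint kinase (-0.78 ± 0.19, adjusted p = 0.00702). Plk1 fell by 0.04 to 1.89 and Birc5 by 0.15 to 1.38. Cdc20, the activator of the anaphase-promoting complex, was lower in 10 of 11 cultures (-0.90 ± 0.20, adjusted p = 0.00367). Of the nucleotide enzymes, thymidine kinase Tk1 (-0.77 ± 0.12, adjusted p = 0.000513) and the ribonucleotide reductase subunit Rrm2 (-0.68 ± 0.13, adjusted p = 0.0014) fell in all cultures, while Rrm1, the other subunit of the reductase, did not pass (-0.21 ± 0.10, adjusted p = 0.114). Mcm3, Mcm4, Mcm5 and Mcm7 were lower in every culture with mean differences between -0.56 and -0.40, and Mcm2 was lower in 7 of 11 (-0.18 ± 0.11, adjusted p = 0.201). The calls of Ccnd1, Cenpa and Mcm3 held in all 10 alternative settings, and the other calls named here were each lost in 1. In the setting where each call was lost, the limma adjusted p was 0.0686 for Plk1, 0.133 for Aurkb, 0.111 for Birc5, 0.136 for Bub1b and 0.0959 for Cdc20. It was 0.167 for Tk1, 0.246 for Rrm2, and 0.0517, 0.278 and 0.182 for Mcm4, Mcm5 and Mcm7. In all, 19 members were lower in every culture, beside 16.9% of all genes, and 5 were higher in every culture, beside 11.4%. Ccne2, whose probe was well above background on 1 of the 23 arrays, is among the 19.

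The members that did not pass within cultures also lay in several roles, and some were near the threshold (Prc1, limma adjusted p = 0.0586). Pcna had a mean difference of 0.08 ± 0.06 (SE) and Top2a of 0.19 ± 0.11. Bub1 had 0.18 ± 0.08, Kif11 -0.19 ± 0.13, Cenpe -0.10 ± 0.13, Nusap1 -0.15 ± 0.10 and Prc1 -0.37 ± 0.14, and Ccna2 and Ccnb1 had -0.29 ± 0.14 and -0.26 ± 0.13. Mean differences of the mitotic genes thus ran from -1.002 for Plk1 to 1.57 for Mki67, and differences between genes were not tested. The calls of Kif23, a kinesin of cytokinesis, and Ttk, a checkpoint kinase, each with an adjusted p of 0.0322, were lost on leaving out 8 and 7 of the 11 cultures in turn (adjusted p up to 0.1002 and 0.0954), and that of Foxm1 without MK2-/- culture 2 (-0.37, adjusted p = 0.0544). That of Ccne2, near background, was lost without MK2-/- culture 1 (adjusted p = 0.0513). With the culture as a block within each genotype, 14 members passed in wt BMDM, beside 23% of all genes, 5 higher (beside 8.9%) and 9 lower (beside 14.1%). In MK2-/- BMDM 18 passed, beside 24.3%, 5 higher (beside 9.54%) and 13 lower (beside 14.7%). In MK2/3-/- BMDM 23 passed, beside 32.1%, 6 higher (beside 13.3%) and 17 lower (beside 18.8%).

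Cultures of a group spread widely in these genes. The residual SD of the log2 signal within a group had a median of 0.76 over the 51 genes and of 0.31 over the genes detected on all arrays. A large share of it was common to the medium and the LPS array of a culture: the correlation of these arrays, estimated for each gene from the 11 pairs as a description, had a median of 0.75 over the members against 0.40 over detected genes, and exceeded 0.5 in 37 of 51 members (72.5%) against 40.7% of detected genes. It was highest for the later cyclins and Cdk1 (median 0.88) and the mitotic genes (0.83) and lowest for the pair of CDK inhibitors (0.02). The arrays of a culture also shared a slide column, so that culture and column cannot be told apart in these correlations. The median log2 signal of the 16 mitotic genes in medium ran from 10.11 in MK2-/- culture 4 to 13.00 in MK2-/- culture 1.

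**Figure D4:**
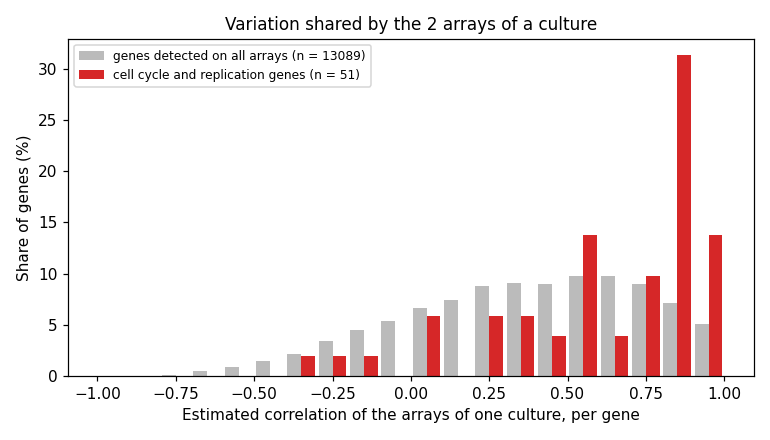
Share of genes (y axis, %) by the estimated correlation of the arrays of a culture (x axis), for the 51 cell cycle and replication genes and for 13089 genes that were detected on all arrays and had no missing value. The cell cycle and replication genes gather toward the right, with 72.5% of them above 0.5 against 40.7% of the detected genes.

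The size of the response differed between cultures in a like order in each genotype. Cultures of the same number lay in the same column of each slide, so that culture number and column cannot be told apart here. Culture 2 had the lowest LPS difference for 34, 35 and 26 of the 51 genes in wt, MK2-/- and MK2/3-/- BMDM (66.7%, 68.6% and 50.98%), beside 37.5%, 38.9% and 32.1% of the genes detected on all arrays. Culture 4 had the highest difference for 34, 40 and 30 (66.7%, 78.4% and 58.8%), beside 36.0%, 39.5% and 31.0%. For E2f2, culture 2 gave -4.24, -4.84 and -4.91 and culture 4 gave -1.57, -1.48 and -1.38. For Plk1, culture 2 gave -1.35, -1.89 and -1.76 and culture 4 gave -0.04, -0.52 and -0.39. The SD of the differences over detected genes was 1.19, 1.24 and 1.32 in culture 2 and 0.88, 1.00 and 0.97 in culture 4. These were the highest and the lowest SD of each genotype. Between cultures 1 and 3 the larger SD went with the smaller fall of E2f2 in wt (SD 0.93 and 1.08 with -3.41 and -2.57) and in MK2/3-/- BMDM. Whether the general size of the LPS response bears on these values was not tested. Stroma marker medians in medium were 5.31, 4.61 and 5.29 in culture 2 and 8.46, 8.75 and 9.86 in culture 4. The highest, 10.03, was that of wt culture 1, with an E2f2 difference of -3.41. Medians of 7 granulocyte and precursor markers in medium were 6.63, 7.30 and 8.41 in culture 2, the highest of each genotype. They were 5.45, 5.85 and 7.11 in culture 4, and in MK2/3-/- cultures 1 and 3 they were 5.79 and 4.05. What part stromal cells or granulocytes have in these values was not tested.

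The genotypes were compared to ask whether MK2 and MK3 set the level of these genes. In medium no member was called between any pair of genotypes, beside 0.0115% of all genes for MK2-/- against wt, 0.0769% for MK2/3-/- against wt and 0.0461% for MK2/3-/- against MK2-/- BMDM; 5, 0 and 0 members had an unadjusted limma p under 0.05, beside 3.33%, 4.7% and 3.48% of all genes. Mcm6, a helicase subunit, was the member with the smallest p, with a log2 difference of -1.10 ± 0.38 (SE) between MK2-/- and wt medium, groups that did not overlap, and an adjusted p of 1.00. After LPS it was again -1.10 ± 0.35 (adjusted p = 0.48). After LPS no member was called between MK2-/- and wt BMDM (beside 0.0308% of all genes), 2 were called between MK2/3-/- and wt (beside 1.8%) and 1 between MK2/3-/- and MK2-/- BMDM (beside 0.192%). Unadjusted limma p-values under 0.05 were found for 3, 4 and 4 members in these comparisons, beside 7.49%, 13.8% and 7.77% of all genes. Slide and genotype cannot be told apart in any of these values.

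The called genes were Cdkn1b and Ccnd3. Cdkn1b had log2 signals of 11.84, 11.96, 11.93 and 12.19 in wt medium and of 12.10, 12.08, 11.66 and 11.67 after LPS. It had 12.09, 11.69 and 11.61 against 11.77, 11.57, 11.55 and 11.45 in MK2-/- BMDM. In MK2/3-/- BMDM it had 12.25, 11.96, 12.18 and 11.71 in medium and 12.98, 12.54, 12.52 and 12.27 after LPS. All MK2/3-/- LPS arrays were above all LPS arrays of the other genotypes, while in medium the genotypes overlapped. The LPS difference was 0.55 ± 0.17 (SE) in MK2/3-/- BMDM (adjusted p = 0.0194), against -0.11 ± 0.17 in wt and -0.21 ± 0.18 in MK2-/- BMDM, which did not pass. After LPS, Cdkn1b was 0.70 ± 0.17 higher in MK2/3-/- than in wt (adjusted p = 0.0382) and 0.99 ± 0.17 higher than in MK2-/- BMDM (adjusted p = 0.0156). The exact permutation test gave 0.0286 for each, the smallest p that 4 against 4 arrays allow. The wt comparison lost its call without wt LPS replicates 1 (0.77, adjusted p = 0.0636), 3 (0.63, 0.0727) or 4 (0.63, 0.138) and without MK2/3-/- LPS replicates 1 (0.57, 0.126), 2 (0.71, 0.0843) or 3 (0.72, 0.0739), and the MK2-/- comparison without MK2-/- LPS replicate 3 (0.98, adjusted p = 0.0524). The LPS call in MK2/3-/- BMDM was lost without medium replicate 4 (0.45, adjusted p = 0.079) or LPS replicate 1 (0.42, adjusted p = 0.0855). The test of the difference between genotypes in the LPS response itself gave 0.66 against wt and 0.76 against MK2-/- BMDM, with unadjusted limma p-values of 0.0126 and 0.00638 and adjusted p-values of 0.835 and 1.00.

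**Figure D5:**
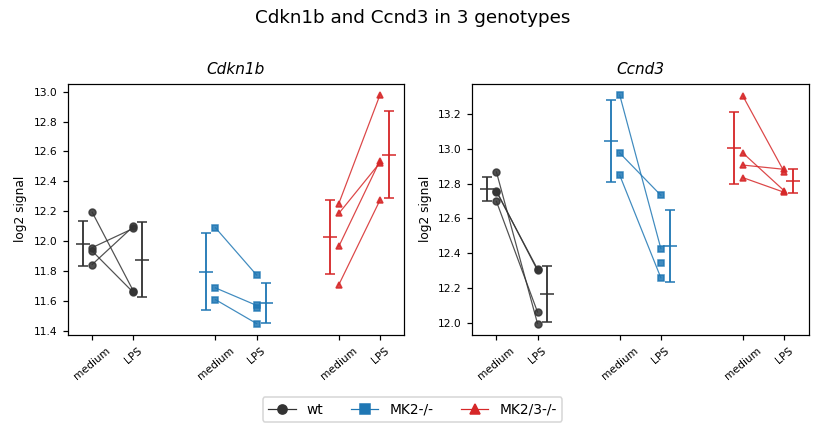
Log2 signal (y axis) of Cdkn1b and Ccnd3 on each array in medium and after LPS (x axis) by genotype, with lines joining the arrays of a culture and bars giving the mean ± SD of a group. After LPS the 4 MK2/3-/- arrays lie above the arrays of the other genotypes for both genes, and in medium the genotypes overlap.

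Ccnd3, whose values by array are given above, was 0.65 ± 0.13 (SE) higher in MK2/3-/- than in wt BMDM after LPS (adjusted p = 0.017, exact permutation p = 0.0286), and 0.37 ± 0.13 higher than in MK2-/- BMDM, which did not pass (adjusted p = 0.41). The call was lost without wt LPS replicate 4 (0.61, adjusted p = 0.0631) or MK2/3-/- LPS replicate 2 (0.62, adjusted p = 0.0548). A second Ccnd3 probe gave 0.74 and 0.48. With the arrays of the compared groups fitted alone, neither Cdkn1b nor Ccnd3 was called between genotypes. Cdkn1a had its highest LPS signals in MK2/3-/- BMDM as well, at 0.73 ± 0.24 above wt (adjusted p = 0.151) and 0.56 ± 0.24 above MK2-/- BMDM (adjusted p = 0.573), with no overlap of the groups and no call. Groups did not overlap for 3 members in each of these comparisons, beside 6.02% and 5.01% of all genes. No interaction of LPS with genotype was called for any of the 51 genes (beside 0.00384%, 0.0154% and 0% of all genes); 1, 3 and 3 members had an unadjusted limma p under 0.05, beside 1.89%, 4.66% and 2.83%.

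Further genes of the same pathways were followed as lists, whose counts stand beside 7.57%, 8.04% and 11.2% of all genes higher and 10.3%, 11.5% and 14.5% lower in the comparison of groups, and beside 18.6% higher and 26.3% lower within cultures. Of 14 pocket proteins, other E2Fs and their partners, none was called higher and 1, 2 and 3 were called lower in wt, MK2-/- and MK2/3-/- BMDM by the comparison of groups, with medians of -0.15, 0.09 and -0.03, and within cultures 3 were called higher and 5 lower. E2f6, a repressive E2F, fell in each genotype with log2 differences of -1.38, -1.33 and -1.35, while Rb1, the retinoblastoma gene, was at 0.21, 0.09 and 0.37 and did not pass. Among 5 further CDK inhibitors Cdkn2b (p15) rose by 1.07, 1.12 and 1.58, and Cdkn2d (p19) was called lower in wt (-1.21) and MK2-/- BMDM (-1.99) and not in MK2/3-/- BMDM (-1.03). Within cultures 1 of these inhibitors was called higher and 2 lower.

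Of 13 p53 targets and growth arrest genes, 3, 2 and 3 rose and 4, 5 and 5 fell by the comparison of groups, and 5 rose and 6 fell within cultures. Gadd45b, a stress-induced growth arrest gene, rose by 5.01, 4.85 and 4.98, Ccng2, a cyclin linked to arrest, by 1.31, 1.49 and 1.88, and Sesn1, a sestrin, fell by 4.27, 4.12 and 3.45. Of 8 genes of growth and cycle entry, Mxd1, an antagonist of Myc, rose by 3.27, 3.63 and 3.33, and Myc itself, at 0.74, 1.48 and 0.56, did not pass. Csf1r, the M-CSF receptor, was at -0.18, -0.11 and -0.14 and did not pass. Within cultures 4 of these 8 genes were called higher and 1 lower. Of 32 other replication genes, none was called higher and 3, 3 and 6 were called lower by the comparison of groups, with medians of -0.31, -0.24 and -0.56. Within cultures 22 of them fell and 1 rose, with a median of -0.41, and with 75th percentile scaling 16 fell and 3 rose. Orc5, a subunit of the origin recognition complex, fell in each genotype (-1.74, -1.88 and -1.46). Among 33 other mitotic genes 1, 0 and 0 rose and 0, 2 and 1 fell by the comparison of groups, with medians of -0.34, -0.28 and -0.33. Within cultures 17 of them fell and 5 rose, with a median of -0.36, and with 75th percentile scaling 14 fell and 6 rose. Ccnf, the cyclin of an E3 ligase complex, had -2.32 in wt, not called, and fell in MK2-/- (-3.12) and MK2/3-/- BMDM (-4.08).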

How the data were processed

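Per the file headers, the authors scanned one-colour Agilent arrays and extracted spot intensity values with Feature Extraction 11.0.1.1. The deposited table of log2 values, which the authors quantile normalised, served as an alternative (Pearson r 1.000 with the values used here, median absolute difference 0.00123). The log2 processed signals were used with marked spots left out, replicate spots averaged and arrays quantile normalised in R 4.3.3. Each gene was represented by its probe of highest mean signal. limma 3.58.1 (lmFit, eBayes) was fitted over the 6 groups and 26014 genes with Benjamini-Hochberg adjustment at 0.05, after tests on simulated data. The number of arrays limits precision. Values by array are given, in each role class, for up to 3 members called in response to LPS in wt BMDM with the largest differences, for every member called between genotypes, and for Mki67, Top2a, Pcna, Ccnd1, Ccnd2, Cdkn1a and Cdkn1b. Plk1, Birc5, Mcm4, Mcm6 and others were named after their values were seen. The members and lists were chosen with earlier results of these data known. The medium and LPS array with the same replicate number and mouse age in the labels were taken as 1 culture. MK2-/- medium replicate 3 and LPS replicate 4 were matched by age alone. Deviations from the group means of the medium and LPS array of a culture correlated at 0.0893 to 0.568 over all genes (10 of 11 pairs above 0.1) and at 0.392 to 0.783 over detected genes. The within-culture fit was added after the data were seen. Alternatives were 75th percentile scaling, normexp on the median signal (offset 50), a floor, a filter on dim probes, other probes, blocks, groups compared alone, the methods' t-test and leaving out arrays.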

Additional observations from a re-analysis of the deposited data

Results flagged for a closer look

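In 3 of the 65 groups of 4 arrays tested, 1 array lay far from the others, where chance gives about 1 in 20 such groups. Cdkn1a was lowest on MK2-/- LPS replicate 3, at a log2 signal of 15.35 against 15.94 to 16.04 on the other arrays of the group. Pcna was highest on wt medium replicate 4, at 16.22 against 15.39 to 15.52, and Tyms was highest on the same array, at 6.80 against 6.55 to 6.59.

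All members were searched for LPS differences of opposite sign in the cultures of 2 genotypes, and the search was not made over all genes. Cdkn1b was the 1 case, between the knockouts. Its differences in the wt cultures ran from -0.53 to 0.25, and its LPS difference in MK2-/- BMDM did not pass. The LPS difference was 0.34 to 0.73 in the 4 MK2/3-/- cultures and -0.32 to -0.12 in the 3 MK2-/- cultures, and the interaction was 0.76, with an unadjusted limma p-value of 0.00638 and an adjusted p-value of 1.00, and did not pass.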

How the results depend on the processing

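With the culture as a fixed replicate block, 14, 18 and 23 members were called after LPS in wt, MK2-/- and MK2/3-/- BMDM (beside 23%, 24.3% and 32.1% of all genes), and with the methods' t-test 5, 5 and 6. For the mean of the genotypes fitted from group means without the culture block, 17 were called. The other counts in this paragraph stand without the share of all genes, so they describe the fits and not these genes in particular. Between genotypes after LPS, with the compared groups alone or by the t-test, 0 and 0 members were called for MK2/3-/- against wt and against MK2-/- BMDM, and with the arrays lacking a gradient fit left out 1 was called against wt. At an unadjusted limma p under 0.05 there were 5 for MK2-/- against wt in medium, 3 after LPS, 4 and 4 for MK2/3-/- against wt and MK2-/- after LPS, and 1, 3 and 3 for the interactions. Leaving out 1 array at a time gave 6 to 9 calls in wt, 6 to 8 in MK2-/- and 8 to 12 in MK2/3-/- BMDM, 0 to 2 and 0 to 1 for MK2/3-/- against wt and MK2-/- after LPS, and 31 to 38 within cultures on leaving out a culture. Cdk1 turned from lower to higher within cultures with the probe of highest LPS induction (0.42, adjusted p = 0.0883), and the cause was not tested. Same-numbered arrays of different genotypes correlated with a median of 0.293 over 44 pairs (35 above 0.1), and with the replicate number as a block 9, 9 and 13 members were called. Apart from MK2-/- medium replicate 3, same-numbered arrays also shared a slide column. Probes near background, such as that of Ccne2, give no fold.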
